A study of Homo sapiens with 6 samples.

Results

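The following 10 genes of the Notch pathway were examined in DBTRG cells: the receptors NOTCH1, NOTCH2 and NOTCH3, the ligands JAG1, JAG2 and DLL1, and the target genes HES1, HES4, HEY1 and HEY2. They were taken by gene symbol, each matching a single row, and are 10 of the 58884 genes in the deposited table. DBTRG is an established human glioblastoma cell line, listed as WT, and every library came from it after 5 days of culture. The culture was either a rigid dish (2D) or a soft gel (3D), each with 3 bulk RNA libraries, numbered 1 to 3. The labels give neither the material nor the stiffness of the gel, and do not say whether replicates were separate cultures. The p-values therefore rest on the spread of these 6 libraries, part or all of which may be technical.

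Notch receptors are cell surface proteins that are cut when a JAG or DLL ligand on a neighbouring cell pulls on them. ADAM10 makes the first ligand-dependent cut, gamma-secretase makes the next, and the freed intracellular domain enters the nucleus, where it binds the DNA-binding protein RBPJ and a Mastermind coactivator. HES and HEY genes are the classical targets, and they encode basic helix-loop-helix (bHLH) repressors that hold back neuronal differentiation. In glioma the pathway is known for its part in maintaining stem-like cells.

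HES1 and HES4 share a pair of short sequences near their start sites, printed here because both are members that fell in soft gel. In HES1 the pair is known to bind RBPJ. The sequences come from RefSeq on GRCh38.p14, 5′ to 3′ on each gene's strand. Capitals mark the first site, GTGGGAA, and the second, which faces it and is read on the other strand.
HES1 pair at chr3:194136063-194136092 on the plus strand: GTGGGAAagaaagtttgggaagtTTCACAC
HES4 pair at chr1:1000145-1000174 on the minus strand: GTGGGAAagaatgcggagccgggTTCACAC
HES1 pair with its flanks at chr3:194136045-194136144 on the plus strand: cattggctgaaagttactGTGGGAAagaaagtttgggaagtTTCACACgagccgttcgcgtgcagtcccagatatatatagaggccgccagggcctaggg

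The pair covers bases -85 to -56 of HES1 and -77 to -48 of HES4, counted from the RefSeq start, and 16 bases separate its sites in both genes. In GENCODE 29 the HES4 gene starts further upstream, at base 1000172 on the minus strand, so all but the first bases of its pair lie inside that gene model. Of the 30 bases, 21 are the same, 7 of them among the 16 in the middle. Searched on both strands of the 250 bases before the start, TGGGAA, the core of the RBPJ site, occurred in 20.8% of 35116 promoters. The first site, which contains that core, occurred in 5.43%. The second site, GTGTGAA on its own strand, occurred in 2.48%. Both sites facing each other on opposite strands, with their starts at most 30 bases apart, occurred in 5 promoters (0.0142%), of which 2, HES1 and HES4, had the 16-base spacing. The letters of the pair were read from HES1 itself, so its own match is by construction. HES1 also held 3 matches of CACNAG, the N-box to which HES proteins bind (32.0% of promoters held at least 1), of which the one at -58 overlaps the second site, and HES4 held 0. HES1 held TGGGAA at -84, within the first site, and again at -70, left in lower case between the sites, while HES4 held it only within its first site. HEY2 had GTGGGAA once, on the other strand at -213, and NOTCH1, NOTCH2, NOTCH3, JAG1 and JAG2 had no match of TGGGAA. HEY1 and DLL1 had no entry among the promoters. HES2, which also fell in soft gel, had no match of TGGGAA or of the second site. HES5 and HEYL, which were not tested, had TGGGAA and not the second site. A match describes letters in a window and is not a measured binding site.

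The libraries held 20911363 to 25901499 counts, and a count of 0 allows up to 3 counts, or 0.116 to 0.143 CPM (counts scaled to library size, not length), for counting error only. Rigid dish 1 stood apart from rigid dish 2 and 3 in several members, so their values are also given without it. Of the glial markers, VIM and NES were present and fell, CD44 and SOX2 were present and rose, GFAP averaged 0.635 CPM on the dish against 0.889 CPM in gel, and OLIG2 was at 0 in all 6 libraries. Of 6 microglial and leukocyte markers CD68 and ITGAM rose, the latter passing the low-count filter through soft gel, and their summed level was 10.7 to 16.3 CPM on the dish against 40.2 to 47.6 CPM in gel, mostly CD68, while PTPRC, AIF1 and CX3CR1 averaged under 0.5 CPM. The 5 endothelial markers summed to 2.63 to 4.45 CPM and 3.58 to 4.26 CPM. The 5 pericyte and fibroblast markers, 2 of them fallen and DCN at 0, went from 12.1 to 14.1 CPM down to 4.73 to 7.28 CPM, and of 4 epithelial markers KRT8 and KRT18 fell while EPCAM and CDH1 averaged under 0.5 CPM. Their part in the results was not tested.

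JAG1 was the most abundant of the 10 transcripts in every library, and the 4 HES and HEY genes together exceeded the 3 receptors in each. Levels of different genes are compared here only per length, as deposited TPM, which divides by transcript length and library depth. JAG1 stood at 109 ± 14.8 TPM on the dish against 119.65 ± 15.9 TPM in gel (SD, n = 3 each). The rigid dish order continued with HEY1 (30.6 ± 13.9 TPM), HES4 (28.98 ± 2.75), HES1 (24.9 ± 1.13), NOTCH2 (21.0 ± 6.66) and NOTCH1 (11.1 ± 3.05). HEY1, whose libraries ran from 14.9 to 41.3 TPM there, overlapped HES4, HES1 and NOTCH2, so that order does not hold beyond the spread. In soft gel HEY1 (46.7 ± 6.38 TPM) was clear of the next gene, NOTCH2 (17.3 ± 1.20), which overlapped HES4 (15.4 ± 1.01). HES1 (10.98 ± 1.64 TPM) and NOTCH1 (7.60 ± 0.843) followed without overlap between them. DLL1 came next at 2.23 ± 0.313 and 1.53 ± 0.305 TPM, and HEY2, NOTCH3 and JAG2 all averaged under 1 TPM.

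**Figure D1:**
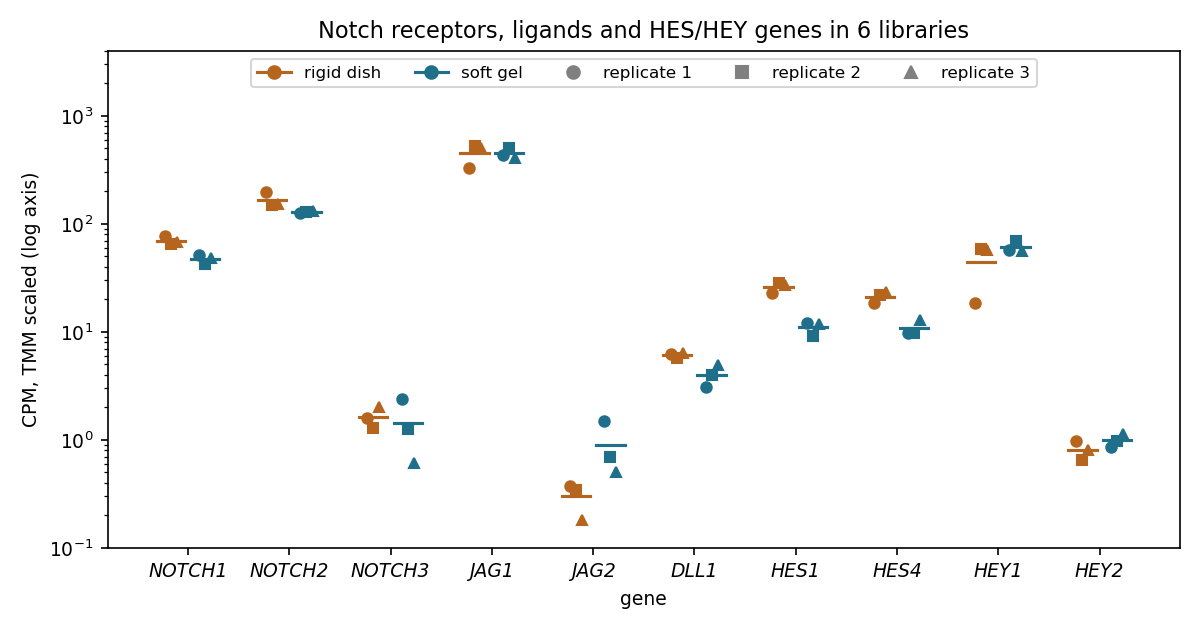
Level of the 10 genes in each library, in CPM after TMM scaling (y axis, log scale), by gene (x axis). Points are single libraries, marker shape gives the replicate number, and bars are means of 3 libraries. HES1, HES4 and NOTCH1 lie lower in every soft gel library than in any rigid dish library, and HEY1 in rigid dish 1 lies at 18.5 CPM, below the other 5 libraries.

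In soft gel HES1, HES4 and NOTCH1 were lower and none of the 10 was called higher. By edgeR's quasi-likelihood test over 16098 genes, 3 of the 10 changed at an adjusted p below 0.05 (30%, against 28.6% of all tested genes; fallen genes were 13.2%). The groups did not overlap for 6 of the 10, against 44.6% of all tested genes. The share called in either direction was near the background, while the fallen share and the share without overlap were above it. JAG2, among the 6 without overlap, passed the low-count filter through soft gel. The 10 members were chosen with earlier results of these data known, so these numbers are not a result about the pathway. The median log2 fold change was -0.29 for the 10 and 0.05 for all tested genes.

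HES1, a bHLH repressor of neurogenic genes, fell to less than its lowest rigid dish level in every soft gel library. It stood at 22.7, 28.1 and 27.2 CPM in rigid dish 1 to 3 and at 12.0, 9.22 and 11.9 CPM in soft gel 1 to 3. The rigid dish libraries were all high and the soft gel libraries all low. The log2 fold change, soft gel over rigid dish, was -1.24 (SE 0.160, edgeR adjusted p = 0.00141), a level 2.36-fold higher on the rigid dish, and 225 of the 16098 tested genes fell as much or more. Without rigid dish 1 it was -1.33 (edgeR adjusted p = 0.000467). Of the fits that left out 1 library, the one without rigid dish 2 had the largest edgeR adjusted p, 0.0112 (-1.19). In bulk RNA, fewer cells with a transcript and less of it per cell cannot be told apart. HES1 lies on chromosome 3, 194136145 to 194138732, plus strand (hg38, GENCODE 29), and overlaps no other annotated gene.

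HES4, a close relative of HES1, fell as well. Whether the promoter pair printed above has a part in either fall was not tested. Its values were 18.3, 21.8 and 23.2 CPM in rigid dish 1 to 3 and 9.72, 9.82 and 12.8 CPM in soft gel 1 to 3, without overlap. The log2 fold change was -0.97 (SE 0.167, edgeR adjusted p = 0.00429), and -1.07 without rigid dish 1 (edgeR adjusted p = 0.00151). Leaving out soft gel 1 gave the largest edgeR adjusted p among the fits that left out 1 library, 0.0283 (-0.90). HES4 (chromosome 1, 998962 to 1000172, minus strand) is among the members whose counts hold decimals, so some of its reads were shared out by the counting. The ratio of HES4 to HES1 in TPM was 1.06, 1.11 and 1.33 on the dish against 1.21, 1.61 and 1.44 in gel, with overlap between the groups.

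HEY1, a bHLH repressor of the related HEY group, was not called in either direction. Its values were 18.5, 58.6 and 56.7 CPM in rigid dish 1 to 3 and 57.1, 70.0 and 56.0 CPM in soft gel 1 to 3. Rigid dish 1 was far below the rest, and rigid dish 2 and 3 lay within the soft gel range. HEY1's log2 fold change was 0.45 (SE 0.351, edgeR adjusted p = 0.35), and 0.08 without rigid dish 1 (edgeR adjusted p = 0.676), so that a single library set most of that value. HEY1 lies on chromosome 8, 79764010 to 79767863, minus strand.

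The make-up of HES and HEY transcripts differed between the groups. HEY1 was 22.5%, 42.7% and 38.9% of the summed TPM of HES1, HES4, HEY1 and HEY2 in rigid dish 1 to 3, and 62.6%, 68.6% and 58.6% in soft gel 1 to 3. The ratio of HEY1 to HES1 in TPM was 0.605, 1.59 and 1.49 on the dish, against 3.77, 5.83 and 3.53 in gel. Every soft gel library was above every rigid dish library in both measures, with rigid dish 1 the lowest in each. This difference was not tested. The summed TPM of the 4 genes overlapped, at 66.4, 96.7 and 91.6 on the dish against 74.2, 77.7 and 69.2 in gel.

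**Figure D2:**
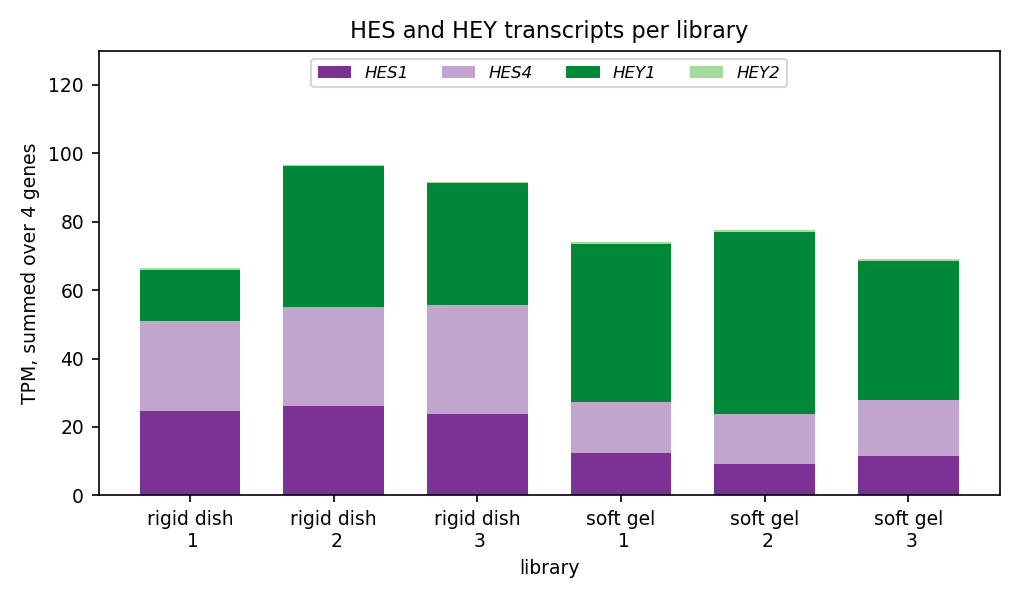
Summed TPM of HES1, HES4, HEY1 and HEY2 (y axis) in each of the 6 libraries (x axis), with each gene's part of the bar in its own colour. HEY1 takes 58.6% to 68.6% of the bar in gel and 22.5% to 42.7% on the dish, and HEY2 is barely visible.

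HEY2, best known from heart and vessel development, was near the low end of detection. It had 26, 15 and 18 counts in rigid dish 1 to 3 and 21, 24 and 24 counts in soft gel 1 to 3, with overlap (log2 fold change 0.28, SE 0.348, edgeR adjusted p = 0.565). An antisense gene overlaps 1527 bases of its gene span, introns included, and no strand setting is stated.

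Of the other HES and HEY genes, HES2 fell with HES1 and HES4, and no gene of the family rose. HES2 went from 12.2 ± 3.20 to 5.54 ± 0.806 CPM (log2 fold change -1.14, SE 0.230, edgeR adjusted p = 0.008), a call lost on log2(TPM + 1) (limma adjusted p = 0.0601). HES6, which is known to oppose HES1, was at 19.7 ± 3.38 and 15.6 ± 4.09 CPM (-0.33, edgeR adjusted p = 0.253, and 0.0393 without soft gel 3). HES7, the segmentation clock gene, had 55, 38 and 49 counts on the dish against 36, 9 and 21 in gel. It did not overlap but was not called (-1.05, SE 0.449, edgeR adjusted p = 0.103), although it was without the low-count filter (0.0247) and with the replicate block (0.0384). With the members HES1 and HES4 counted, 3 of the 7 tested family genes fell and 0 rose, against 13.2% fallen and 15.4% risen of all tested genes. HES3 and HEYL were at 0 counts in all 6 libraries and HES5 held 1 to 16 counts, under the filter.

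NOTCH1, a receptor with broad roles in development, fell in soft gel. It stood at 77.0, 65.0 and 67.6 CPM in rigid dish 1 to 3 and at 51.8, 42.4 and 48.4 CPM in soft gel 1 to 3, without overlap. Its log2 fold change was -0.56 (SE 0.124, edgeR adjusted p = 0.012), a level 1.47-fold higher on the rigid dish, and -0.49 without rigid dish 1 (edgeR adjusted p = 0.0141). The call ended without soft gel 2 (edgeR adjusted p = 0.06) and on log2(TPM + 1), where limma gave -0.47 (adjusted p = 0.18). NOTCH1 lies on chromosome 9, 136494433 to 136545786, minus strand.

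NOTCH2, the receptor with the highest level here, did not overlap between the groups but missed the threshold. It had 199, 150.1 and 153 CPM in rigid dish 1 to 3 and 127, 129.8 and 130.4 CPM in soft gel 1 to 3. Rigid dish 1 was again apart, this time above. NOTCH2's log2 fold change was -0.38 (SE 0.129, edgeR adjusted p = 0.055), and -0.24 without rigid dish 1 (edgeR adjusted p = 0.0798). It was called without rigid dish 3 (-0.50, edgeR adjusted p = 0.0404), with DESeq2 size factors (edgeR adjusted p = 0.0414) and by the DESeq2 test (adjusted p = 0.0203). NOTCH2 (chromosome 1, 119911553 to 120069626, minus strand) shares near-identical sequence with NOTCH2NLA, which held 433 to 661 counts per library against 2780 to 5310 for NOTCH2, so its level is uncertain to that extent. The ratio of NOTCH2 to NOTCH1 in TPM was 1.97, 1.96 and 1.74 on the dish against 2.10, 2.60 and 2.18 in gel, higher in every soft gel library.

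NOTCH3 and NOTCH4 were scarce. NOTCH3, a receptor of vascular mural cells, had 43, 30 and 45 counts in rigid dish 1 to 3 and 58, 31 and 13 in soft gel 1 to 3. Soft gel 1 was highest and soft gel 3 lowest of all 6 libraries (log2 fold change -0.20, SE 0.457, edgeR adjusted p = 0.769). The sign turned without soft gel 3 (0.09) and on log2(TPM + 1) (0.18). NOTCH4 held 7 to 16 counts (edgeR adjusted p = 0.508).

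The ligand JAG1, which made up 97.1% to 98.5% of the summed TPM of JAG1, JAG2 and DLL1 in every library, showed no difference beyond its spread. It stood at 328, 527 and 499.5 CPM in rigid dish 1 to 3 and at 437, 507 and 405 CPM in soft gel 1 to 3. The rigid dish libraries spanned the soft gel ones, with rigid dish 1 lowest of all. The log2 fold change was -0.01 (SE 0.178, edgeR adjusted p = 0.98), and -0.20 without rigid dish 1 (edgeR adjusted p = 0.195). Its sign varied with the setting, from -0.20 to 0.14, and no setting called it. JAG1 lies on chromosome 20, 10637684 to 10673999, minus strand.

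DLL1, the delta-type ligand, was lower in each soft gel library but not called. It had 6.17, 5.71 and 6.36 CPM in rigid dish 1 to 3 and 3.10, 3.98 and 4.92 CPM in soft gel 1 to 3 (log2 fold change -0.61, SE 0.217, edgeR adjusted p = 0.0609). The DESeq2 test called it (adjusted p = 0.0388), as did edgeR without soft gel 3 (adjusted p = 0.0216). DLL1 (chromosome 6, 170282206 to 170306565, minus strand) overlaps FAM120B on the other strand over 15863 bases of gene span, introns included. FAM120B held 898 to 1217 counts. Overlap of exons was not measured and no strand setting is stated, so how far the DLL1 counts are affected is not known.

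JAG2, the other Serrate-type ligand, was the member with the largest positive value, on very few reads. It had 10, 8 and 4 counts in rigid dish 1 to 3 and 36, 17 and 10.8 counts in soft gel 1 to 3. The raw counts of rigid dish 1 and soft gel 3 lay within 1 count of each other, and the groups did not overlap. The log2 fold change was 1.56 (SE 0.536, edgeR adjusted p = 0.0552), 0.99 without soft gel 1 (edgeR adjusted p = 0.262), and 1.77 without soft gel 3, where it was called (edgeR adjusted p = 0.0432). JAG2 passed the low-count filter through its soft gel libraries, and its counts hold decimals. Of the remaining canonical ligands, DLL3 held 47 to 87 counts (edgeR adjusted p = 0.46) and DLL4 0 to 10.

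**Figure D3:**
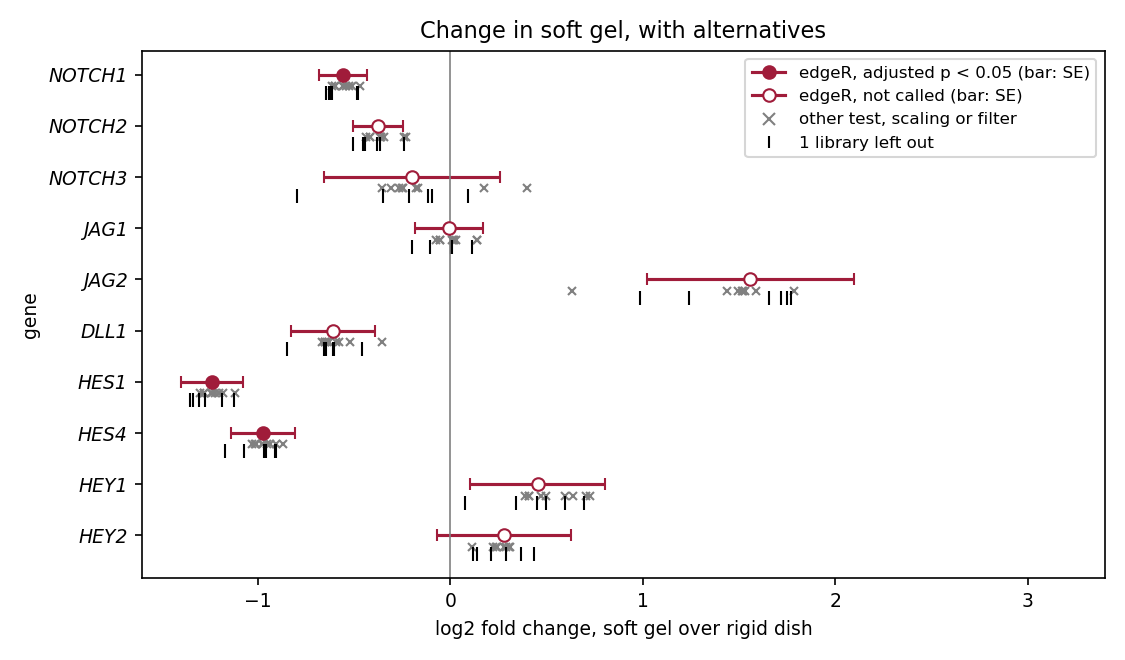
Log2 fold change, soft gel over rigid dish (x axis), of each gene (y axis). Circles are the edgeR values with their SE, filled at an adjusted p below 0.05; crosses are other tests, scalings or filters, and ticks leave out 1 library. HES1 and HES4 stay at -0.87 or lower in all settings shown, while JAG1 and NOTCH3 fall on both sides of 0.

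The authors' deposited table marked HES1 alone of the 10 as significant (log2 fold change -1.22, adjusted p = 7.45e-10). In the authors' deposited table HES4 (-0.96, 6.42e-06), NOTCH1 (-0.59, 0.000509), NOTCH2 (-0.42, 0.017) and DLL1 (-0.59, 0.0495) also had an adjusted p below 0.05 without that mark. The mark thus did not follow an adjusted p below 0.05 alone, and HES1 had the largest log2 fold change in size of the 10 there. The authors' deposited table gave JAG2 a log2 fold change of 0.82 and HEY1 of 0.28, neither with an adjusted p below 0.05.

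The wider pathway, 103 genes in 12 role lists with the 10 members included, moved in both directions. Of 90 tested genes, 18 fell and 12 rose (33.3% called, against 28.6% of all tested genes), and the median log2 fold change was -0.13. All 5 tested genes of the proneural bHLH and ID list were among the 12 that rose, and none of the 18 that fell was in it. All 12 lists were chosen with earlier results of these data known, so their shares are descriptions only. Leaving out soft gel 2 gave 6 fallen and 8 risen, leaving out soft gel 1 gave 8 and 8, and leaving out rigid dish 2 gave 9 and 8. Calls over all tested genes fell as well, from 4603 to 1803, 1963 and 2026 in that order. On log2(TPM + 1) limma called 8 fallen and 10 risen. Among the genes named below, NEURL1B, POFUT1, MAML1, CTBP1, CTBP2, TLE2, NUMBL, FBXW7, DTX4 and PDGFRB were not called on either log2 TPM scale (limma adjusted p = 0.101 to 0.654), nor was ERBB2 (0.0524 and 0.0506).

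**Figure D4:**
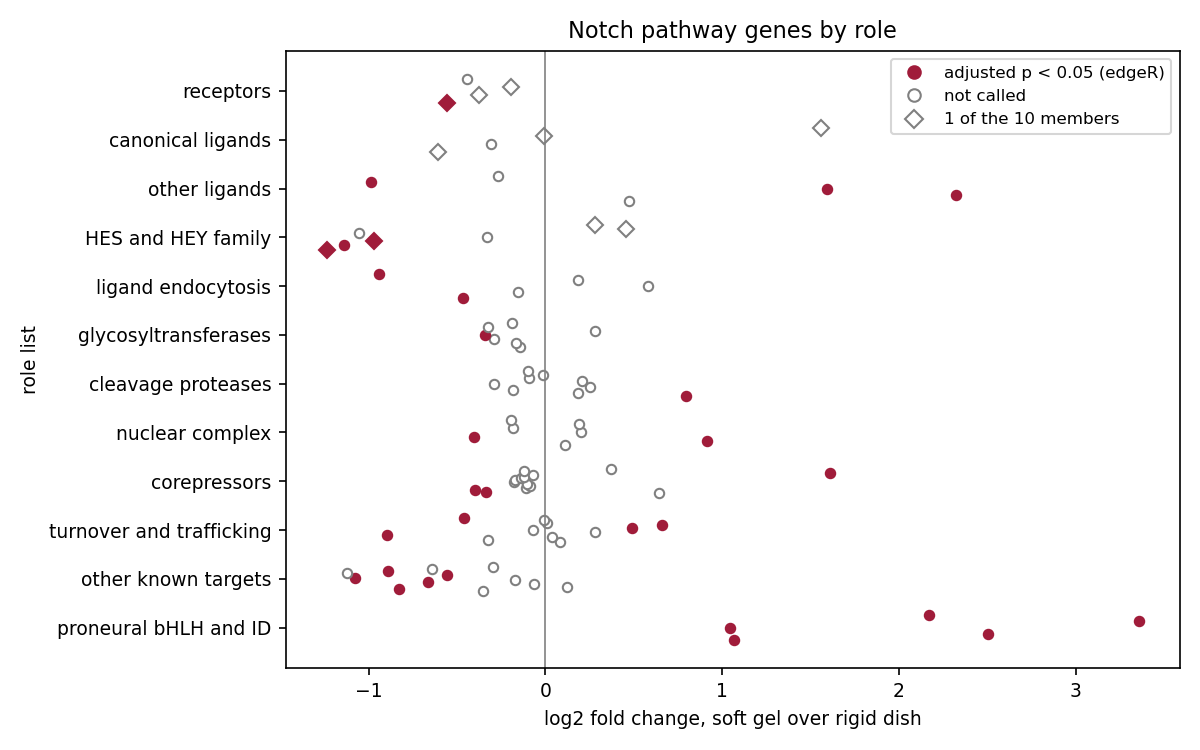
Log2 fold change, soft gel over rigid dish (x axis), of the 90 tested pathway genes by role list (y axis); filled symbols passed edgeR's test at an adjusted p below 0.05 and diamonds are members. The 5 tested proneural bHLH and ID genes all lie to the right of 1, and the 5 called genes among the other known targets lie to the left of 0.

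Ligands of other types moved both ways, with 2 of 5 tested risen and 1 fallen (60% called, against 28.6% of all tested genes). DNER, a neuronal transmembrane protein described as a Notch ligand, rose from 77.4 ± 14.5 to 233 ± 29.5 CPM (log2 fold change 1.59, edgeR adjusted p = 0.000533). CNTN6, a contactin described as a Notch ligand and named after its values were seen, rose from a low level, 1.62 ± 0.231 to 8.08 ± 1.51 CPM (2.32, edgeR adjusted p = 0.000517). MFAP2, a microfibril glycoprotein, fell from 112 ± 34.1 to 56.4 ± 3.65 CPM (-0.99, edgeR adjusted p = 0.00996, and 0.0522 without soft gel 2).

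Most genes that ready the ligand and the receptor did not pass. The shares called were 40% for ligand endocytosis and 14.3% for glycosyltransferases, against 28.6% of all tested genes. Of 5 tested genes of ligand endocytosis 2 fell, the ubiquitin ligase NEURL1B (-0.94, edgeR adjusted p = 0.0243) and the epsin EPN1 (-0.47, 0.0279). NEURL1B lost its call when soft gel 1 (0.0649) or soft gel 2 (0.101) was left out. EPN1 lost it when any of rigid dish 2 and 3 and soft gel 1 and 2 was left out (0.0539 to 0.115). The ligase MIB1, which activates ligands, was at 45.2 ± 8.91 and 67.7 ± 20.2 CPM (edgeR adjusted p = 0.0822), and was called without rigid dish 1 (0.0307) or soft gel 3 (0.0119). Of 7 tested glycosyltransferases 1 fell, POFUT1, which adds O-fucose to the receptor (-0.34, edgeR adjusted p = 0.0419). That call was lost when any of the same 4 libraries was left out (0.0587 to 0.157) and with upper quartile factors (0.0639). LFNG, a Fringe enzyme that tunes the choice between delta and jagged ligands, was at 19.5 ± 2.45 and 15.9 ± 1.89 CPM (edgeR adjusted p = 0.176).

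Among 9 tested cleavage proteases ADAM10 rose and 0 fell (11.1% called, against 28.6% of all tested genes). ADAM10 went from 107 ± 15.2 to 185 ± 46.1 CPM (log2 fold change 0.79, SE 0.191, edgeR adjusted p = 0.0158), and lost its call when any of those 4 libraries was left out (0.0624 to 0.0742). PSEN2, NCSTN, APH1A, APH1B and PSENEN, which encode parts of gamma-secretase, had log2 fold changes between -0.18 and 0.25, and none was called.

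In the nuclear complex RBPJ itself was at 37.7 ± 7.85 and 43.1 ± 7.46 CPM (0.19, edgeR adjusted p = 0.441). The acetyltransferase KAT2B rose from 20.94 ± 4.29 to 39.5 ± 7.06 CPM (0.92, edgeR adjusted p = 0.0084). The coactivator MAML1 fell (-0.41, edgeR adjusted p = 0.0224), a call lost when rigid dish 2 or either of soft gel 1 and 2 was left out (0.0682 to 0.103). Of 14 corepressor genes 2 fell and 1 rose (21.4% called, against 28.6% of all tested genes). CTBP2 (-0.40, edgeR adjusted p = 0.026) was not called when any of the same 3 was left out (0.0999 to 0.12). CTBP1 (-0.34, edgeR adjusted p = 0.0387) was not called without any of these or rigid dish 3 (0.0627 to 0.149), nor with upper quartile factors (0.0561). The risen gene was TLE2, named after its values were seen, at 13, 10 and 4 counts in rigid dish 1 to 3 and 34, 21 and 25 in soft gel 1 to 3 (edgeR adjusted p = 0.0277). It passed the low-count filter through soft gel, where it is high, and its call was lost when any library but rigid dish 1 was left out (0.0607 to 0.114).

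Among 11 tested genes of receptor turnover and trafficking 2 fell and 2 rose (36.4% called, against 28.6% of all tested genes). DTX2, a Deltex ubiquitin ligase, fell from 49.1 ± 2.71 to 26.3 ± 4.402 CPM (-0.90, edgeR adjusted p = 0.00332), and NUMBL, a relative of the Notch inhibitor NUMB, fell by 0.46 on the log2 scale (edgeR adjusted p = 0.0268). FBXW7, which marks the Notch intracellular domain for destruction, rose (0.66, edgeR adjusted p = 0.019), as did DTX4 (0.49, 0.0295). NUMBL and FBXW7 lost their calls when any of rigid dish 2 and 3 and soft gel 1 and 2 was left out (0.0526 to 0.0877). DTX4 lost it also without soft gel 3 (0.0543 to 0.127 over the 5) and without the low-count filter (0.0868). NUMB was at 30.2 ± 1.11 and 29.97 ± 3.24 CPM (edgeR adjusted p = 0.963).

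Among 12 other known Notch targets 5 fell and 0 rose, with a median log2 fold change of -0.60, against 13.2% fallen, 15.4% risen and a median of 0.05 over all tested genes. These targets were listed with earlier results of the data known, so the comparison is a description and not a test. MYC, the growth-promoting transcription factor, went from 80.2 ± 15.02 to 38.1 ± 7.17 CPM (-1.07, edgeR adjusted p = 0.00385). CCND1, the G1 cyclin, went from 1673 ± 4.70 to 941 ± 61.1 CPM (-0.83, edgeR adjusted p = 0.00119). Both are known to respond to many other pathways. The other fallen genes, named after their values were seen, were NES (-0.56), ERBB2 (-0.66) and PDGFRB (-0.89). NES lost its call when any of rigid dish 2 and soft gel 1 and 2 was left out (0.0542 to 0.0893), ERBB2 with these or rigid dish 3 (0.0505 to 0.104), and PDGFRB with these or soft gel 3 as well (0.0593 to 0.113). NRARP, a Notch feedback gene, was at 0.865 ± 0.102 and 0.387 ± 0.328 CPM and was not called (-1.13, SE 0.576, edgeR adjusted p = 0.166). It passed the low-count filter through its rigid dish libraries, where it is high, and it is part of the median given above.

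In the list of 9 proneural bHLH and ID genes, all 5 tested rose and 4 were not tested, against 15.4% risen of all tested genes. They were ID1, ID2, ID3 and ID4, which sequester bHLH proteins, and the proneural gene NEUROG2. The list was chosen with earlier results of these data known, so the share that rose is a description and not a test. ID4 rose from 4.98 ± 0.696 to 51.2 ± 3.90 CPM (3.36, edgeR adjusted p = 1.27e-05) and ID2 from 37.6 ± 8.001 to 213 ± 9.25 CPM (2.50, 6.92e-05). NEUROG2, named here after its values were seen, was low, at 0.760 ± 0.219 and 3.45 ± 0.913 CPM (2.17, edgeR adjusted p = 0.00289). NEUROD1, ATOH1 and OLIG2 were under the filter.

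The genes most like 3 of the members were sought over the 6 libraries among 9708 protein-coding genes with a mean of 10 CPM or more, by Euclidean distance between centred log2(CPM + 0.5). For HES1 they were FSD1, C19orf48, CDC25B, PLAT and NUP210, at distances of 0.159 to 0.199. HES4 stood 111th on that list and NOTCH1 1050th. For HES4 they were SNRNP40, MRPL11, DCPS, RPSA and MRTO4, at 0.0984 to 0.142. On the HES4 list HES1 stood 417th and NOTCH1 1505th. For HEY1 they were SLC7A11, MGLL, DGCR6, DDIT3 and SHC2, at 0.446 to 0.56. All 5 were lowest in rigid dish 1, as HEY1 was. That follows from choosing them by distance to HEY1, whose profile rigid dish 1 dominates, and is not a separate result. JAG1 stood 277th for HEY1, and HES1 9571st. Such likeness describes 6 libraries that share 2 conditions.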

How the data were processed

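For each gene the authors deposited estimated counts (with decimals in 11.3% to 13.0% of genes per library) and TPM. The authors also deposited their own comparison of the groups: a linear ratio, its log2 value, and p-values before and after adjustment. HISAT2, HTSeq and hg38 are named in the submitters' processing notes; the quantifier and strand setting are not given in the sources used here. Total RNA was taken with TRIzol and libraries were made with a TruSeq kit, per the labels' protocols. Counts were rounded, filtered with filterByExpr (minimum count 10), scaled by TMM and tested by quasi-likelihood in edgeR 4.0.16 under R 4.3.3, over all 16098 tested genes, with Benjamini-Hochberg adjustment and a threshold of 0.05. Each SE came from the test statistic. Positions are from GENCODE 29, which held 99.5% of the gene identifiers, and promoters from RefSeq, matched by symbol for 8 of the 10 genes. Alternatives were other scalings, filters, DESeq2 1.42.0, limma 3.58.1 (voom and log2 TPM), a replicate block and leaving out each library. The named genes were the 10 members, other receptors, canonical ligands and HES or HEY genes, and up to 2 risen and 2 fallen genes per role list with 5 CPM or more; MIB1, LFNG, RBPJ, NUMB, NRARP, NEUROG2, CNTN6, TLE2, NES, ERBB2, PDGFRB, ID1, ID3, PSEN2, NCSTN, APH1A, APH1B and PSENEN were added after their values were seen. The members and lists were chosen with earlier results of these data known. On simulated data with 15832 tested genes, edgeR recovered 18.8% of 80 genes changed 1.5-fold, 65.6% of 61 changed 2-fold and 94.6% of 56 changed 4-fold, and 12.2% of its calls were false. That false share lay above the threshold of 0.05. The simulation held far fewer changed genes, with 123 called against 4603 in the data, so its rates need not hold for the data. Replicate numbers were not treated as pairs.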

Additional observations from a re-analysis of the deposited data

How the results depend on the processing

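HES1 and HES4 kept their direction and their call under all 15 alternatives, from -1.35 to -1.12 and from -1.17 to -0.87 on the log2 scale. HEY1 was not called under any of the 15, and HEY2 under none of the 14 that gave it a value. On log2(TPM + 1) and log2(TPM + 0.1), limma called 2313 and 2287 genes in place of 4603, with 8 and 8 fallen in the pathway in place of 18; NOTCH1 was no longer called (-0.47 and -0.51), NOTCH3 (0.18 and 0.40) and JAG1 (0.14 and 0.14) turned positive, and JAG2 was called (0.64 and 1.79). JAG1 was also positive with upper quartile factors (0.029), the 1 CPM filter (0.011) and voom (0.018). NOTCH2 was called with DESeq2 size factors (-0.42), without the filter (-0.44) and by DESeq2 (-0.42), and DLL1 without the filter (-0.67) and by DESeq2 (-0.65). Leaving out 1 library gave 1803 to 6164 changed genes, 6 to 22 fallen and 8 to 14 risen in the pathway, and log2 fold changes of -0.65 to -0.48 for NOTCH1, -0.50 to -0.24 for NOTCH2, -0.80 to 0.095 for NOTCH3, -0.20 to 0.11 for JAG1, 0.99 to 1.77 for JAG2 and -0.85 to -0.46 for DLL1. The causes were not tested. JAG2 and HEY2 gave no value under the 1 CPM filter, where they were not among the genes tested.

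Same-numbered libraries deviated together with correlations of 0.217, 0.00912 and 0.307. Rigid dish 1 and 3 each correlated best with the soft gel library of the same number. Rigid dish 2 was near 0 with its own number and slightly higher with soft gel 3 (0.0424). These values do not settle whether the numbers mark pairs, and the main fit does not take them as pairs. With the replicate block 6442 genes were called, 17 risen and 23 fallen in the pathway, among them NOTCH2 (-0.36), JAG2 (1.52) and DLL1 (-0.63), and JAG1 was at 0.017. Of the 27 pathway genes called beyond the members, 11 kept their call under all alternatives: DNER, CNTN6, KAT2B, DTX2, MYC, CCND1, NEUROG2, ID1, ID2, ID3 and ID4. Of uncalled genes near 0, NUMB turned positive with upper quartile factors (0.023) and the 1 CPM filter (0.0080), and PSEN2 with these (0.019 and 0.00039) and on both TPM scales (0.086 and 0.090). With 1 library left out NUMB ran from -0.11 to 0.011, PSEN2 from -0.18 to 0.039, PSENEN from -0.34 to 0.038 and RBPJ from -0.0038 to 0.36. Depth limits NOTCH3, JAG2 and HEY2, at 4 to 58 counts per library.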

Other observations

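For NOTCH3 and JAG2 the deposited counts and TPM moved apart. NOTCH3 had 43 counts and 0.28 TPM in rigid dish 1, but 30 counts and 0.53 TPM in rigid dish 2, and 58 counts and 1.07 TPM in soft gel 1. Counts per TPM ran from 48.1 to 167 over the 6 libraries for NOTCH3 and from 15.2 to 61.5 for JAG2, against 141 to 165 for NOTCH1. The sign of the NOTCH3 difference and the size of the JAG2 difference depend on the unit read.

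NOTCH2NLA, a human-specific partial copy of NOTCH2, held 661, 569 and 478 counts on the dish against 597, 467 and 433 in gel. Over all 6 libraries NOTCH2NLA ranged from 15.3 to 22.4 TPM, and NOTCH2 from 15.9 to 28.7 TPM. The sources used here do not give how reads were divided between them.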
